A study of Mus musculus with 66 samples.

Results

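A set of 291 array probes had higher signal in C57BL/6J mouse cerebellum at embryonic days 15 to 17 (E15 to E17) than at both E12 and postnatal day 6 (P6). They were chosen from 46632 probes in the C57BL/6J signal table. The signal was taken as log2 of the larger of the signal and 64. A probe was a member if its mean over the 9 arrays of E15, E16 and E17 exceeded both the mean of the 3 E12 arrays and the mean of the 3 P6 arrays by at least 1, that is at least 2-fold. The members carry 277 gene names, of which 226 matched the RefSeq mouse annotation, through 238 probes. The C57BL/6J values at E12, E15 to E17 and P6 chose the members and are therefore given only as a description. DBA/2J, which the rule did not use, gives the tests.

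RNA from whole cerebellum was measured on Illumina bead arrays in untreated mice of the inbred strains DBA/2J and C57BL/6J, with no genotype, treatment or transgene named in the labels. DBA/2J was sampled at 11 ages (E12 to E18, P0, P3, P6 and P9; 31 arrays) and C57BL/6J at 12 (the same ages and E19; 35 arrays). Each strain and age had 3 arrays, called biological replicates in the labels, apart from DBA/2J P9, with a single array, and the 2 arrays of C57BL/6J E14. The sources used here do not say how many cerebella went into a sample.

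Between E12 and birth the mouse cerebellum passes from a proliferating neuroepithelium to a layered cortex. Purkinje cells, the cortex's output neurons, and the neurons of the cerebellar nuclei leave the ventricular zone and the rhombic lip early in this window, migrate, and send out axons, while granule cells multiply mainly after birth. Genes of migration, axon guidance and early synapses are known to be active in young neurons of this kind. Because whole tissue was measured, fewer cells of a type and less RNA per cell cannot be told apart in any value below.

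Some arrays stood apart from their labels. An index was taken as the mean log2 signal of the 100 probes outside the set with the clearest excess in C57BL/6J, minus that of the 100 with the clearest excess in DBA/2J. The index was built after the data had been seen. It ran from -1.88 to -1.06 on 28 of the 31 DBA/2J arrays and from 1.37 to 1.82 on the 35 C57BL/6J arrays. The array labelled DBA/2J E13 replicate 3 had an index of 1.48, inside the C57BL/6J range. The arrays labelled DBA/2J E13 replicate 2 and DBA/2J E12 replicate 2 lay between the strains, at -0.01 and -0.41, and on the second of these the myelin gene Mbp (ILMN_2737200) read 12.19, against 8.20 and 8.17 on the other DBA/2J E12 arrays. DBA/2J E15 replicates 1 and 3 and E12 replicate 3 (-1.06, -1.20 and -1.26) were also nearer to C57BL/6J than the remaining 25. No E13 array of DBA/2J enters a difference tested below, though all enter the estimate of spread, and counts without the 3 and without the 6 arrays are given beside the main ones.

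The label of a transient peak was borne out in part. The median member rose early, stayed high to the end of gestation and was lower at birth. In DBA/2J the median log2 signal of the 291 probes lay between 7.37 and 7.52 on the E12 arrays, 7.81 and 8.22 at E13, 8.52 and 8.81 at E14, 8.52 and 9.05 at E15, 8.89 and 9.10 at E16, 8.78 and 9.04 at E17, and 8.91 and 9.10 at E18. It then lay between 8.29 and 8.69 at P0, 8.06 and 8.24 at P3, and 7.85 and 8.06 at P6, and the single P9 array stood at 8.11. Every DBA/2J array of E14 to E18 was thus above every E12, E13, P3 and P6 array, and the E18 arrays lay within the range of those of E15 to E17. In C57BL/6J the arrays of E15 to E17 lay between 9.04 and 9.28, those of E18 and E19 between 8.91 and 9.10, and those of P0 between 8.01 and 8.43. The tables of the strains appear to have been normalized separately, so their levels are set side by side only as a description.

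**Figure D1:**
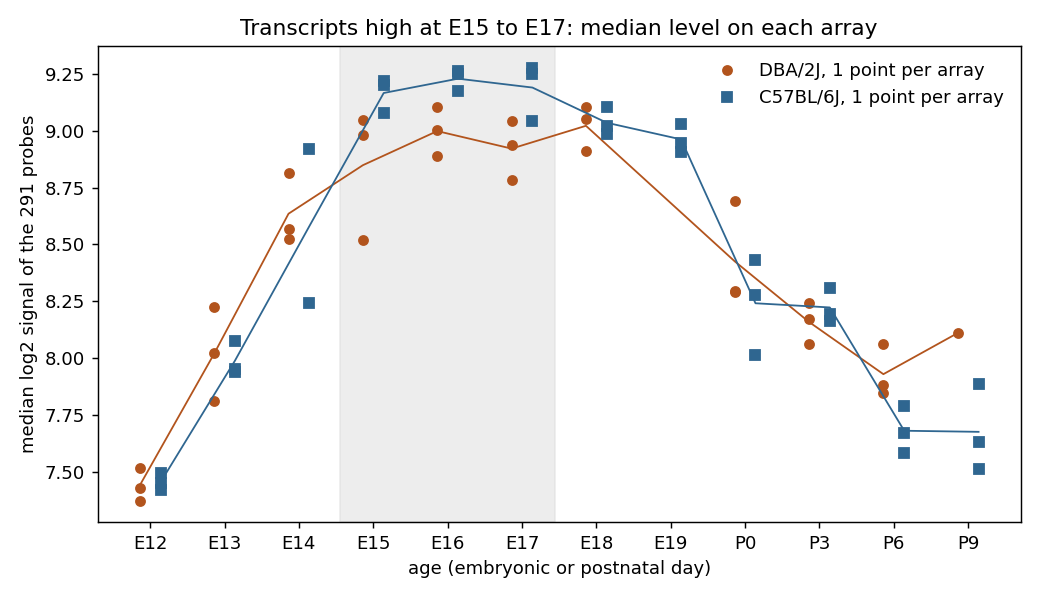
Median log2 signal of the 291 probes on each array (points) and the mean of the arrays at each age (lines) in DBA/2J and C57BL/6J, from E12 to P9, with E15 to E17 shaded. DBA/2J medians lie at 7.37 to 7.52 at E12, 8.52 to 9.10 at E15 to E17, 8.91 to 9.10 at E18 and 7.85 to 8.06 at P6. C57BL/6J chose the probes on the shaded ages, E12 and P6.

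In C57BL/6J, where the rule was applied, the median member was 1.43 higher on the log2 scale at E15 to E17 than at E12 and 1.33 higher than at P6. Over all probes these medians were 0.12 and 0.10. On 273 of the 291 probes all 9 arrays of E15 to E17 exceeded all 6 arrays of E12 and P6. The members nearest to the limit were Rai2, with a smaller difference of 1.0011, Calm2, a calmodulin gene, with 1.0013, and the reticulon gene Rtn1 with 1.0029. Just outside lay probes of the neurotrophin receptor Ntrk2, at 0.99995, of Cttnbp2, at 0.99976, and of the syntaxin gene Stx3, at 0.99894. Several genes were members through more than 1 probe. These were Myt1l, a neuronal transcription factor, with 3 probes, and 12 others with 2 each, among them Foxp2, Scn3b, Slc27a2 and Plxna4. The 133 member genes with further probes on the array had 272 of them outside the set, of which 196, or 72.1%, were above 0 on both sides in C57BL/6J, beside 58.1% of all probes.

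The promoters of 4 leading members are shown because these genes passed both DBA/2J tests described next and come from different functional groups. Each runs from 250 bases before to 50 bases after the gene's start in RefSeq's annotation of GRCm38.p6, 5′ to 3′ on the gene's strand, with capitals for the motifs searched below. The promoter of Sst, which encodes the neuropeptide somatostatin, lies on the minus strand at chr16:23890795-23891094 and holds 1 NFI motif (TTGGC). The promoter of Zcchc12, which encodes a zinc finger transcriptional coactivator, lies on the plus strand at chrX:36195654-36195953 and holds 1 EBF core (CCCNNGGG) and 2 NFI motifs. The promoter of Slc27a2, which encodes a fatty acyl-CoA synthetase, lies on the plus strand at chr2:126552774-126553073 and holds 1 ROR motif (AGGTCA, here on the other strand). The promoter of Nsg2, which encodes a neuronal endosomal membrane protein, lies on the plus strand at chr11:32000169-32000468 and holds 1 E-box (CAGCTG).
Sst: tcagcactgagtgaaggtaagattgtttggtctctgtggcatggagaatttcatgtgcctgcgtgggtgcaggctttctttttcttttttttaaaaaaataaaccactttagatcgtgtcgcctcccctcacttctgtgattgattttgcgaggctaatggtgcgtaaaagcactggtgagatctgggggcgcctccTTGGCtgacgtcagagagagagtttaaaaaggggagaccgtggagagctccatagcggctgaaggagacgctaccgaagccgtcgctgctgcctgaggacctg
Zcchc12: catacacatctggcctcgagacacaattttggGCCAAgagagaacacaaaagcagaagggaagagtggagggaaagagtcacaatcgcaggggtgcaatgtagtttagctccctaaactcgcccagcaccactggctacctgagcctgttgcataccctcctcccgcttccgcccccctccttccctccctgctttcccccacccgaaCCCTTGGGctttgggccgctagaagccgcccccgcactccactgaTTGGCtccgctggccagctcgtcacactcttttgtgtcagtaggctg
Slc27a2: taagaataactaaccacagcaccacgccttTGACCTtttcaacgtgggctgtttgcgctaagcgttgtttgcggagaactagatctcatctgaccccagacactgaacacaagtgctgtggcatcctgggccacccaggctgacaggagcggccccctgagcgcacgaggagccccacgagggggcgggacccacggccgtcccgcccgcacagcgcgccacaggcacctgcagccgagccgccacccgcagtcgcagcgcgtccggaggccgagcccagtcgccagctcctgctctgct
Nsg2: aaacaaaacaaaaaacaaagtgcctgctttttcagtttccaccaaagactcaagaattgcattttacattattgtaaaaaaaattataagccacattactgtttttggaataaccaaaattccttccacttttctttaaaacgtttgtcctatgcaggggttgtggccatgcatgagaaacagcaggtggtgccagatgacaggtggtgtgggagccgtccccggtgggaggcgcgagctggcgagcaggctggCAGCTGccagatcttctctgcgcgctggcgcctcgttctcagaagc

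The same pattern was asked of DBA/2J with a linear model in limma, fitted to all 46632 probes with 1 mean per age. A probe was called at a Benjamini-Hochberg adjusted p under 0.05. At E15 to E17 against E12, 245 of the 291 members were called higher and 0 lower, where 7.61% and 6.58% of all probes were called in those directions. The estimated difference was above 0 for 290 of the 291, and 0 were lower at an unadjusted p under 0.05 in limma. Against P6, 211 members were called higher, beside 5.83% of all probes, and 1, Tspoap1, was called lower, beside 7.2%. Both differences were called higher for 195 members, or 67%, beside 2.02% of all probes. The median member was 1.25 higher than at E12, with a range of -0.12 to 3.83, and 0.87 higher than at P6, with a range of -0.65 to 2.46. Over all probes the medians were 0.02 and -0.02.

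Both differences were above 0 for 283 members, beside 25% of all probes, and both were at least 1 for 102, beside 0.347%. On 141 members all 9 DBA/2J arrays of E15 to E17 lay above all 6 arrays of E12 and P6, beside 1.22% of all probes. A further 50 members were called only against E12, 16 only against P6, and 30 in neither comparison. Without the 3 arrays between or across the strains, 231 members were called against E12, 219 against P6 and 187 in both. Without the 6 such arrays, which leaves 1 array at E12 and 1 at E15, the counts were 188, 213 and 156.

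Chips and ages overlapped little. In DBA/2J the arrays of E15 to E17 shared 1 chip with those of E12 and none with those of P6. When chips were fitted as a fixed block, 186 members were called higher than E12, 52 higher than P6 and 47 in both. With the array series (chips whose numbers begin alike) as a fixed block, the counts were 252, 189 and 184. For these blocks, and for the arrays left out above, the shares of all probes called are not given here. The counts therefore show only how many member calls remained. In C57BL/6J, which chose the members, the arrays of E15 to E17 shared 1 chip with those of E12 and no chip or series with P6. Batch and age therefore cannot be told apart in the choice against P6. Within chips, DBA/2J E15 replicate 3 exceeded E12 replicate 3 on 279 members, with a median of 0.91, and on 62.4% of all probes. Both of these DBA/2J arrays are among the 6 nearer to C57BL/6J. The other DBA/2J arrays of their series, E17 replicate 3 and P9, had indices of -1.421 and -1.415. Series and strain cannot be told apart in the index of these arrays. In C57BL/6J, E16 replicate 3 exceeded E12 replicate 2 on all 291, with a median of 1.37, and on 35.2% of all probes. Both of these C57BL/6J arrays helped to choose the members, so this value is a description only. Within a series, 6 DBA/2J arrays of E15 to E17 exceeded P6 replicate 1 on 268 members, with a median of 0.76, and on 39.4% of all probes.

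**Figure D2:**
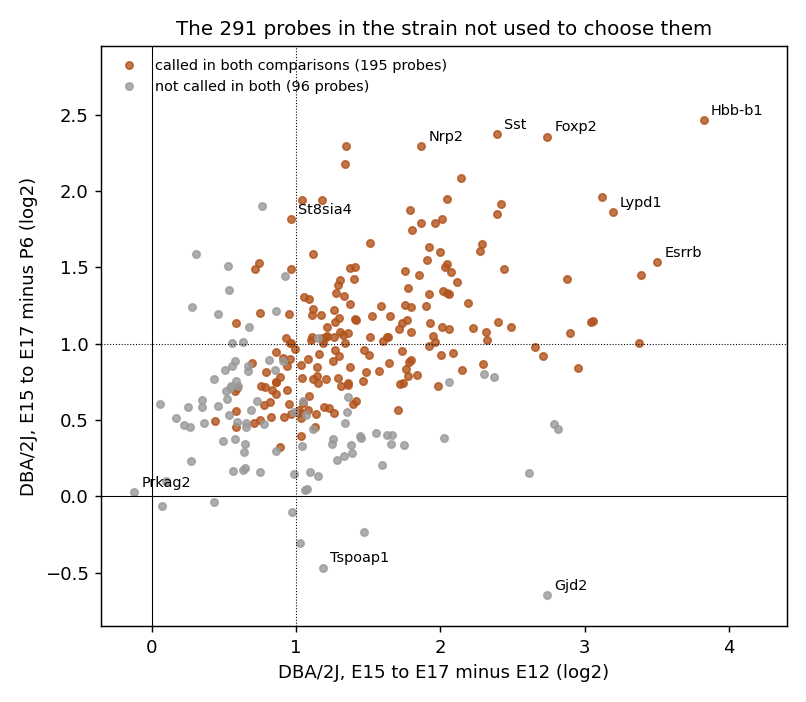
Each point is 1 of the 291 probes in DBA/2J, with the mean of E15 to E17 minus E12 on the horizontal axis and minus P6 on the vertical axis, both in log2 units. The 195 brown probes were called higher in both comparisons, 283 probes lie above 0 on both axes, and Gjd2 and Tspoap1 lie below 0 on the P6 axis.

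Genes of Purkinje cells and of cerebellar nuclear neurons were among the members. Foxp2, a forkhead transcription factor of both cell types, was a member through 2 probes. On its brighter probe (ILMN_2602051) the 9 DBA/2J arrays of E15 to E17 ran from 9.42 through a median of 10.23 to 10.62, against 7.35, 7.22 and 7.68 at E12 and 7.91, 7.85 and 7.66 at P6. All 9 were above all 6 others. The difference was 2.74 ± 0.16 (SE; adjusted p = 4.76e-11) from E12 and 2.36 ± 0.16 (adjusted p = 6.72e-10) from P6, and the P6 difference with the chip as a block was 2.07 (adjusted p = 0.051). In C57BL/6J the 9 arrays ran from 9.93 through 10.38 to 10.64, against 7.64 to 7.73 at E12 and 7.48 to 7.89 at P6. The dimmer Foxp2 probe (ILMN_1243811) moved the same way in DBA/2J, by 1.80 ± 0.42 (adjusted p = 0.00393) from E12 and 1.75 ± 0.42 (adjusted p = 0.0061) from P6, the second again uncalled once chips were fitted (1.77, adjusted p = 0.158).

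Dab1, the adaptor through which Reelin steers migrating Purkinje cells, ran from 9.45 through 9.62 to 10.02 at E15 to E17 in DBA/2J, against 8.03, 7.85 and 8.02 at E12 and 8.74, 8.41 and 8.55 at P6. The groups did not overlap. Its differences were 1.73 ± 0.14 (adjusted p = 4.29e-09) and 1.13 ± 0.14 (adjusted p = 3.14e-06), and the second was 0.77 with the chip as a block (adjusted p = 0.217). Tbr1, a T-box transcription factor of cerebellar nuclear neurons that come from the rhombic lip, ran from 7.31 through 7.72 to 8.47, against 6.63, 6.75 and 6.62 at E12 and 6.65, 7.02 and 7.0 at P6. It was higher by 1.16 ± 0.11 (adjusted p = 4.52e-08) and 0.93 ± 0.11 (adjusted p = 1.49e-06), again with no overlap. Its highest arrays were those of E14 and E15.

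Most other genes of these cell types were not called on both sides. Of 27 measured genes in a list of Purkinje cells and their precursors, with 1 probe per gene, 13 were called higher and 1 lower at E15 to E17 than at E12 in DBA/2J, and 8 higher and 6 lower than at P6. Of all 19763 genes, 2086 were called higher and 1700 lower than at E12, and 1477 higher and 1999 lower than at P6. These counts are the base for every list here and below. The 5 Purkinje list genes called higher on both sides (18.5%, beside 2.80% of 19763 genes) were the members Foxp2 and Dab1 and the non-members Epha4, Cdh8 and Cck. The mean of the Purkinje list lay between 8.96 and 9.33 on the DBA/2J arrays of E15 to E17, 8.03 and 8.54 at E12, and 8.96 and 9.11 at P6, so that the list was above E12 on all 9 arrays and overlapped P6. Of 13 genes of nuclear and early rhombic lip neurons only Tbr1 was called higher on both sides. Of the 13, 3 were called higher and 4 lower than at E12, and 4 higher and 2 lower than at P6. The mean of this list in DBA/2J lay between 7.84 and 8.31 at E15 to E17, 8.10 and 8.48 at E12, and 7.89 and 7.92 at P6. It thus overlapped both ends. No gene was called higher on both sides among 22 genes of granule cells and their progenitors, 24 of the cell cycle, 17 of the oligodendrocyte lineage, 18 of microglia or 21 of blood vessels, and 1 of 25 ventricular zone genes was, Tfap2a. Larger shares were called on both sides among genes of axon guidance, growing axons and secreted signals, described below with their members.

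**Figure D3:**
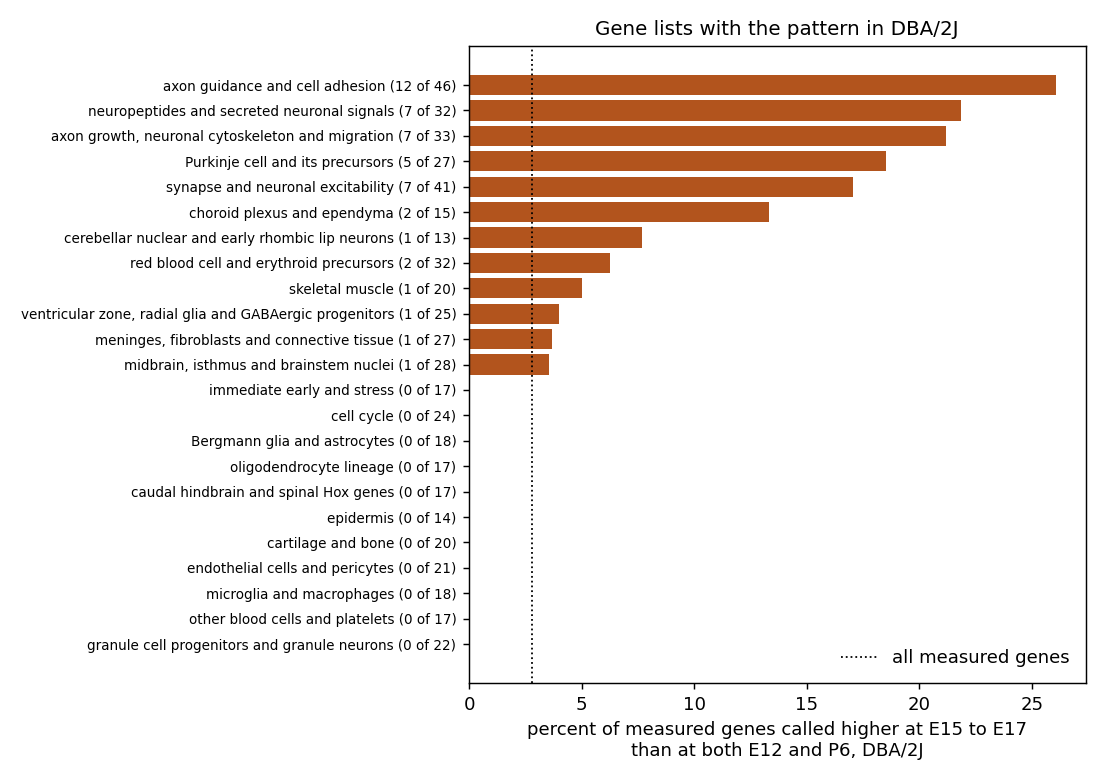
Percent of the measured genes of each of 23 lists that were called higher at E15 to E17 than at both E12 and P6 in DBA/2J, with the number of genes in brackets. The dotted line marks 2.80%, the share of all 19763 genes. Axon guidance (26.1%), neuropeptides (21.9%), axon growth (21.2%), Purkinje cell (18.5%) and synapse genes (17.1%) have the highest shares.

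Among ligands and their receptors, neuropeptide genes had some of the steepest courses. Sst ran from 10.59 through 11.78 to 13.07 at E15 to E17 in DBA/2J, against 10.31, 9.20 and 9.09 at E12 and 9.70, 9.84 and 9.12 at P6. All 9 arrays were above the other 6, with the lowest of them close to the array labelled E12 replicate 1. The differences were 2.39 ± 0.43 (adjusted p = 0.000252) and 2.37 ± 0.43 (adjusted p = 0.000354). The first lost its call without the 6 arrays nearer to C57BL/6J (1.62, adjusted p = 0.259), and the second with the chip as a block (2.78, adjusted p = 0.0829). In C57BL/6J Sst ran from 11.03 through 11.74 to 12.04, against 8.71 to 9.27 at E12 and 9.10 to 9.53 at P6.

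Tac1, which encodes substance P, was higher by 2.06 ± 0.23 (adjusted p = 4.2e-07) than at E12 and 1.33 ± 0.23 (adjusted p = 0.000189) than at P6 in DBA/2J, with 9 arrays from 7.98 to 9.29 against 6.49 to 6.81 at E12 and 7.32 to 7.42 at P6. Both Tac1 calls were lost with the chip as a block (1.66, adjusted p = 0.0741, and 1.59, adjusted p = 0.234). Npy, the neuropeptide Y gene, was higher than at E12 by 2.00 ± 0.30 (adjusted p = 3.4e-05). Its excess over P6 of 0.93 ± 0.30 (adjusted p = 0.045) lost its call on leaving out any of 17 single arrays out of 24, and with the series or the chip as a block (adjusted p = 0.203 and 0.426). Of 32 measured neuropeptide and secreted signal genes, 14 were called higher and 0 lower than at E12, 11 higher and 5 lower than at P6, and 7 higher on both sides. These were the 3 members together with Cck, Nts, Cbln4 and Rspo2.

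Rxfp3, the receptor of the peptide relaxin-3, was low at both ends. Its 9 DBA/2J arrays ran from 8.04 through 8.65 to 9.37, against 6.28, 6.30 and 6.22 at E12 and 6.85, 6.70 and 6.77 at P6, and in C57BL/6J all 3 E12 arrays read 6.00, the floor. The DBA/2J differences were 2.42 ± 0.16 (adjusted p = 1.6e-10) and 1.91 ± 0.16 (adjusted p = 6.9e-09), and both kept their call with the chip as a block. Lypd1, a membrane-anchored Ly6 protein that binds nicotinic acetylcholine receptors, ran from 10.58 through 11.26 to 11.57, against 8.23, 8.08 and 7.58 at E12 and 9.51, 9.20 and 9.18 at P6. It was higher by 3.19 ± 0.21 (adjusted p = 2.36e-10) and 1.86 ± 0.21 (adjusted p = 9.45e-07), and its groups did not overlap.

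Guidance receptors and adhesion molecules made up the largest block of list members, 8 of 46 measured genes, beside 202 of all 19763 genes. Neuropilin-2 (Nrp2), a receptor for class 3 semaphorins, ran from 8.71 through 9.46 to 10.13 in DBA/2J, against 7.73, 7.18 and 7.89 at E12 and 7.41, 6.91 and 7.19 at P6. The groups did not overlap, and the differences were 1.87 ± 0.25 (adjusted p = 8.56e-06) and 2.29 ± 0.25 (adjusted p = 6.49e-07). Sema3a, a secreted semaphorin that repels axons, was higher by 1.65 ± 0.16 (adjusted p = 1e-07) and 0.87 ± 0.16 (adjusted p = 0.000568), although its lowest array at E15 to E17, 8.80, lay under the highest P6 array, 8.99. The Slit receptor Robo2 was higher by 1.64 ± 0.19 (adjusted p = 8.71e-07) and 1.04 ± 0.19 (adjusted p = 0.000391).

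Plexins are the signalling partners of semaphorin receptors. Plxnc1 was higher by 1.29 ± 0.20 (adjusted p = 5.07e-05) and 0.78 ± 0.20 (adjusted p = 0.0103). Plxna4 had 2 member probes, with differences of 0.71 ± 0.15 and 0.48 ± 0.15 on one (ILMN_1214617) and 0.75 ± 0.16 and 1.20 ± 0.16 on the other (ILMN_2520582), all called. With the chip as a block the rise on ILMN_2520582 was 0.13 (adjusted p = 0.887). On ILMN_1214617 the rise lost its call with a higher floor (0.28, adjusted p = 0.0564) and without the 6 arrays nearer to C57BL/6J (0.83, adjusted p = 0.0658), and the P6 call on leaving out any of 6 single arrays out of 24. The protocadherins Pcdh10 and Pcdh19, cell adhesion molecules of the cadherin family, were higher by 2.09 ± 0.12 and 1.12 ± 0.23 than at E12 and by 0.94 ± 0.12 and 1.23 ± 0.23 than at P6, all called. The member probe of the ephrin-A receptor Epha5 was higher by 1.29 ± 0.31 (adjusted p = 0.00507) and 1.38 ± 0.31 (adjusted p = 0.00339), the first of which lost its call without the array labelled DBA/2J E12 replicate 2 (1.08, adjusted p = 0.0602).

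Over the whole guidance and adhesion list 24 genes were called higher and 6 lower than at E12, 21 higher and 5 lower than at P6, and 12 higher on both sides. The 12 were the 8 member genes, with Epha5 counted through a brighter probe outside the set, and Sema3e, Epha4, Cdh8 and Pcdh17. With the chip as a fixed block Nrp2 kept its excess over P6, while Sema3a, Robo2, Plxnc1, Pcdh10, Pcdh19, Epha5 and both Plxna4 probes lost theirs (differences of 0.26 to 1.06, adjusted p of 0.11 to 0.685).

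**Figure D4:**
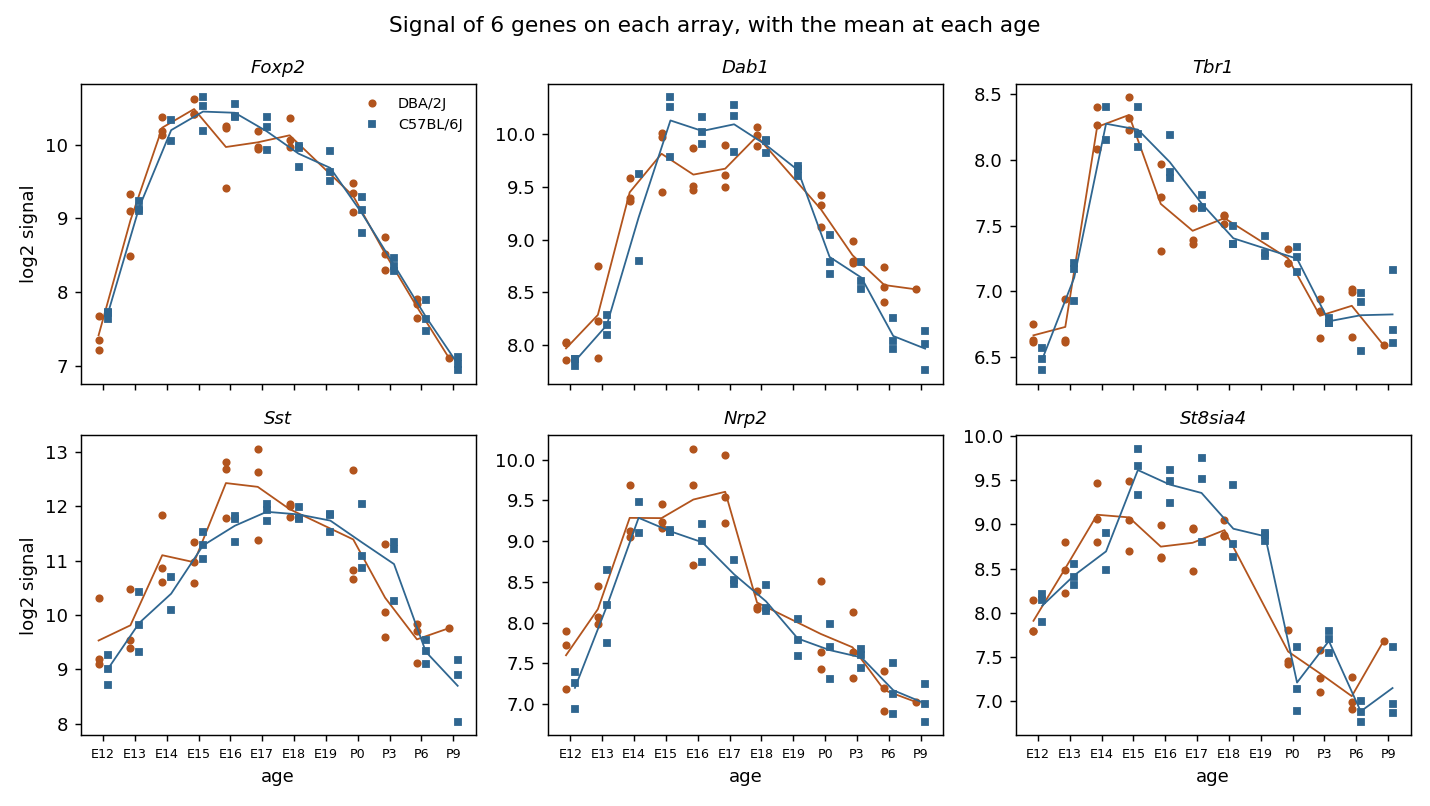
Log2 signal of Foxp2, Dab1, Tbr1, Sst, Nrp2 and St8sia4 on every array (points) at each age from E12 to P9, with lines through the means, in DBA/2J and C57BL/6J. Foxp2 lies at 9.42 to 10.62 on the DBA/2J arrays of E15 to E17 and at 7.22 to 7.91 at E12 and P6. Tbr1 is highest at E14 and E15, and St8sia4 drops between E18 and P0 in both strains.

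Genes of the growing axon formed a second block. Of 33 measured genes of axon growth, the neuronal cytoskeleton and migration, 13 were called higher and 0 lower than at E12, 15 higher and 0 lower than at P6, and 7 higher on both sides. These were the members Gap43, Ina and Dab1 and the non-members Dcx, Dclk1, Mapt and Cdk5r1. Gap43, a growth cone protein, ran from 13.33 through 13.58 to 14.27 in DBA/2J, against 13.06, 12.01 and 12.19 at E12 and 12.73, 12.16 and 12.21 at P6. The ranges did not overlap, and the differences were 1.28 ± 0.25 (adjusted p = 0.00062) and 1.33 ± 0.25 (adjusted p = 0.000505). The first lost its call without the 6 arrays nearer to C57BL/6J (0.66, adjusted p = 0.511), and the second with the chip as a block (0.99, adjusted p = 0.344).

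The intermediate filament gene Ina was 1.59 ± 0.28 (adjusted p = 0.00031) above P6. Its rise of 1.12 ± 0.28 (adjusted p = 0.0072) lost its call without the array labelled E12 replicate 2 (0.83, adjusted p = 0.109) or replicate 3 (0.99, adjusted p = 0.0657). For the neurofilament gene Nefm the P6 difference was called (1.59 ± 0.36, adjusted p = 0.00312) and the E12 difference was not (0.31 ± 0.36, adjusted p = 0.69), as 2 DBA/2J E12 arrays read 11.07 and 11.10, inside the E15 to E17 range of 10.24 to 11.54. The Nefm call was lost with the series or the chip as a block (adjusted p = 0.118 and 0.212). The kinesin Kif21b passed neither test (0.91 ± 0.31, adjusted p = 0.0557, and 0.88 ± 0.31, adjusted p = 0.0675), although its 9 arrays, 8.25 to 9.73, lay above all 6 others, and both differences were called with the replicate block (adjusted p = 0.0293 and 0.037). Cobl, an actin nucleator and one of the strongest members in C57BL/6J, was higher by 2.27 ± 0.21 (adjusted p = 2.34e-08) and 1.61 ± 0.21 (adjusted p = 4.8e-06).

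Synaptic and excitability genes mostly rose and then stayed high. Of 41 measured genes 34 were called higher and 0 lower than at E12, but only 8 higher and 5 lower than at P6, and 7 higher on both sides. Glra2, the glycine receptor subunit of fetal neurons, ran from 10.07 through 11.06 to 11.37 in DBA/2J, against 7.12, 8.0 and 7.25 at E12 and 10.11, 9.62 and 9.77 at P6. It exceeded E12 by 3.38 ± 0.22 (adjusted p = 1.58e-10) and P6 by 1.00 ± 0.22 (adjusted p = 0.00234), and its lowest array lay just under the highest P6 array. Gabra2, a GABA receptor subunit, and Gria2, an AMPA receptor subunit, were called against E12 (1.66 ± 0.13 and 1.75 ± 0.26) but not against P6 (0.34 ± 0.13, adjusted p = 0.0831, and 0.34 ± 0.26, adjusted p = 0.497). The P6 difference of Gabra2 was called with the replicate block (adjusted p = 0.0477) and with a higher floor (adjusted p = 0.0357).

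The neuronal adhesion gene Nlgn1 and the sodium channel subunit Scn3b were called on both sides, but with P6 differences of 0.61 ± 0.20 (adjusted p = 0.0418) for Nlgn1 and 0.74 ± 0.21 (adjusted p = 0.02) and 0.45 ± 0.14 (adjusted p = 0.0317) for the 2 Scn3b probes. Leaving out single arrays took these calls away in 7, 2 and 4 of 24 cases. The member named by the clone C130076O07RIK, which RefSeq lists as a synonym of Nrcam, a neuronal cell adhesion gene, was higher by 1.26 ± 0.17 (adjusted p = 5.23e-06) and 0.54 ± 0.17 (adjusted p = 0.0305). Its P6 call was lost on leaving out any of 5 arrays out of 24, and with the series, the chip and the random chip block (adjusted p = 0.0755, 0.15 and 0.1). Fitting chips as a block also removed the P6 calls of Nlgn1 and both Scn3b probes (adjusted p = 0.27 to 0.904).

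Several leading members fall outside these groups. Zcchc12 ran from 10.10 through 10.42 to 10.72 in DBA/2J, against 8.58, 8.09 and 8.53 at E12 and 8.64, 8.42 and 8.44 at P6. Its ranges were far apart, and the differences were 2.05 ± 0.13 (adjusted p = 9.32e-11) and 1.95 ± 0.13 (adjusted p = 2.85e-10). Slc27a2 ran from 8.41 through 8.70 to 9.10, against 6.53, 6.49 and 6.40 at E12 and 7.32, 6.95 and 7.06 at P6, with differences of 2.29 ± 0.10 (adjusted p = 7.7e-13) and 1.65 ± 0.10 (adjusted p = 1.62e-10). The endosomal proteins Nsg1 and Nsg2 are related members of 1 family. Nsg2 was higher by 1.92 ± 0.24 (adjusted p = 3.16e-06) and 1.63 ± 0.24 (adjusted p = 3.66e-05), and Nsg1 by 1.85 ± 0.32 (adjusted p = 0.000187) and 1.45 ± 0.32 (adjusted p = 0.0029). With the chip as a block both Nsg1 calls were lost (1.45, adjusted p = 0.0774, and 0.77, adjusted p = 0.52), and the rise also without the 6 arrays nearer to C57BL/6J (1.36, adjusted p = 0.131).

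Snhg11, a long noncoding RNA that hosts a small nucleolar RNA, had 2 member probes with different courses. ILMN_1238627 ran from 11.24 through 12.57 to 13.04 in DBA/2J, against 9.24 to 10.35 at E12 and 11.09 to 11.80 at P6, and stayed between 12.82 and 13.10 at E18. ILMN_2644381 ran from 8.17 through 10.72 to 11.74, against 7.57 to 9.01 at E12 and 8.15 to 9.12 at P6, and read 8.31, 8.48 and 8.72 at E18. Its arrays at E15 to E17 overlapped both ends. The P6 calls of both probes were lost with the chip as a block (adjusted p = 0.0906 and 0.0965), and that of ILMN_1238627 after quantile normalization (0.75, adjusted p = 0.0648). Clone C130040D06RIK, listed by RefSeq as a synonym of Gprin2, was higher by 1.86 ± 0.13 (adjusted p = 3.05e-10) and 1.79 ± 0.13 (adjusted p = 7.52e-10).

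Clone B230317G11RIK is listed by RefSeq as a synonym of the myelin gene Mog. It was higher by 1.79 ± 0.18 (adjusted p = 1.25e-07) and 1.88 ± 0.18 (adjusted p = 8.33e-08). Its mean was 9.0 at E16 and 7.13 at P9 in DBA/2J, whereas probes named MOG on the array (ILMN_1259536 and ILMN_2615034) had means of 6.26 and 6.47 at E16 and 9.10 and 9.19 at P9. The clone's probe thus did not follow the probes of that gene, and it is called by its clone name here. When chips were fitted as a fixed block, 17 of 46 named probes kept their excess over P6, among them those of Zcchc12, Slc27a2, Nsg2, Rxfp3, Lypd1, Nrp2, Cobl, Glra2, Ina, Tbr1 and St8sia4.

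Genes of other tissues also met the rule. Hbb-b1, an adult beta globin gene whose copies are nearly identical, so that its probes may not tell them apart, ran from 9.98 through 11.92 to 13.57 on ILMN_1256252 in DBA/2J, against 9.50, 7.89 and 6.77 at E12 and 10.17, 9.27 and 8.79 at P6. It was higher by 3.83 ± 0.61 (adjusted p = 6.17e-05) and 2.46 ± 0.61 (adjusted p = 0.00689), with 1 array under the highest P6 array. The first lost its call without the 6 arrays nearer to C57BL/6J (2.44, adjusted p = 0.118). The second difference was 0.28 with the chip as a block (adjusted p = 0.902) and lost its call without DBA/2J P6 replicate 3 (adjusted p = 0.0732). The other member probe (ILMN_1235372) passed neither DBA/2J test, with differences of 0.06 ± 0.33 (adjusted p = 0.952) and 0.60 ± 0.33 (adjusted p = 0.293). The second was called without the 3 and without the 6 arrays nearer to C57BL/6J (0.60, adjusted p = 0.0231, and 0.39, adjusted p = 0.0125).

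Of 32 measured red blood cell genes in DBA/2J, 3 were called higher and 11 lower than at E12, 6 higher and 1 lower than at P6, and 2 higher on both sides, Hbb-b1 through another probe and Hbb-b2. The list's mean lay between 7.63 and 8.05 on the DBA/2J arrays of E15 to E17, 8.04 and 8.43 at E12, and 7.38 and 7.5 at P6. The embryonic globins took another course in DBA/2J, with means for Hbb-y of 13.23 at E12, 9.25 at E16 and 6.34 at P6, and for Hbb-bh1 (ILMN_1225816) of 12.80, 7.09 and 6.52. The part of blood in the tissue in these values was not tested.

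Collagen gene Col1a1, of connective tissue, ran from 7.55 through 8.04 to 8.92 in DBA/2J, against 6.37, 6.09 and 6.16 at E12 and 6.44, 6.62 and 6.62 at P6, with differences of 1.91 ± 0.13 (adjusted p = 3.05e-10) and 1.55 ± 0.13 (adjusted p = 7.7e-09). It was the 1 gene of 27 in the meninges and connective tissue list called on both sides. The mean of that list lay between 7.29 and 7.60 at E15 to E17, 7.39 and 7.74 at E12, and 8.26 and 8.58 at P6. Perinatal myosin Myh8 was higher by 3.06 ± 0.22 (adjusted p = 7.15e-10) and 1.15 ± 0.22 (adjusted p = 0.000631), and was the 1 gene of 20 in the skeletal muscle list called on both sides. With the chip as a block its P6 call was lost (1.51, adjusted p = 0.0678). Of the list, 3 genes were called higher and 0 lower than at E12, and 2 higher and 3 lower than at P6. Besides Myh8, the actin gene Acta1 (0.92, adjusted p = 0.00248) and the myosin light chain gene Myl4 (0.50, adjusted p = 0.035) were the genes higher than at E12, and Acta1 averaged 7.81 at E16, against 6.56 at E12 and 7.56 at P6. The list's mean lay between 6.66 and 6.91 at E15 to E17, 6.45 and 6.60 at E12, and 6.91 and 6.96 at P6, and the muscle regulator Myog averaged 6.31 at E16.

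Sostdc1, a secreted BMP antagonist listed here with the choroid plexus, was higher by 1.53 ± 0.29 (adjusted p = 0.000486) and 1.18 ± 0.29 (adjusted p = 0.00662). The rise lost its call with the chip as a block (adjusted p = 0.372) and without the 6 arrays nearer to C57BL/6J (1.24, adjusted p = 0.238). The P6 call was lost with the series, the chip and the random chip block (adjusted p = 0.077, 0.265 and 0.0586) and without P6 replicate 1 or 3 (adjusted p = 0.0963 and 0.131). Its P6 arrays read 6.73, 8.84 and 6.77 in DBA/2J, and the mean of the 15 choroid plexus genes also ranged widely at P6, with 6.94 to 7.12 at E15 to E17 against 7.16 to 8.04 at P6. The glutamine synthetase gene Glul passed neither DBA/2J test on its member probe (0.35 ± 0.24, adjusted p = 0.445, and 0.58 ± 0.24, adjusted p = 0.132), and 13 of 18 genes of Bergmann glia and astrocytes were called lower than at P6. The part of these cells in the members' values was not tested.

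Where DBA/2J lacked the pattern, it lacked it in different ways. The 6 members with the lowest values there were Gjd2, Tspoap1, Adgrb3, Prkag2, Sema4g and Cpeb4. Gjd2, the gap junction protein connexin 36, ran from 9.34 through 9.96 to 10.98 in DBA/2J, against 7.52, 7.40 and 7.41 at E12 and 11.17, 10.49 and 10.84 at P6. It was higher than at E12 by 2.74 ± 0.27 (adjusted p = 8.7e-08), and its difference from P6 was -0.65 ± 0.27 (adjusted p = 0.131). That difference was called lower after quantile normalization (-0.75, adjusted p = 0.00461), with the authors' scores (-1.08 in score units, adjusted p = 0.00439) and with the series as a block (-0.97, adjusted p = 0.0402). In C57BL/6J its P6 arrays read 8.68, 8.86 and 8.87, under the 9.98 to 10.35 of E15 to E17. Tspoap1, which organises presynaptic release sites, was higher than at E12 by 1.19 ± 0.15 (adjusted p = 4.69e-06) and was called lower than at P6 (-0.47 ± 0.15, adjusted p = 0.0481), a call lost on leaving out any of 17 single arrays and with the series or the chip as a block (adjusted p = 0.159 and 0.333).

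Adgrb3, an adhesion receptor at synapses, had P6 arrays of 8.16 to 8.61 inside its range of 7.38 to 8.74 at E15 to E17 in DBA/2J. It and Sema4g were called against E12 (1.03 ± 0.21, adjusted p = 0.00113, and 0.97 ± 0.25, adjusted p = 0.00735) and not against P6 (adjusted p = 0.443 and 0.873). Both E12 calls were lost with the chip as a block (0.90, adjusted p = 0.133, for Adgrb3 and 0.65, adjusted p = 0.256, for Sema4g). That of Sema4g was also lost without E12 replicate 2 or 3 (adjusted p = 0.0682 and 0.0621) and without the 3 or the 6 arrays nearer to C57BL/6J (adjusted p = 0.0548 and 0.353). Cpeb4, a regulator of messenger RNA translation, passed neither test (adjusted p = 0.454 and 0.964). Prkag2, a subunit of the AMP-activated kinase, stayed in a low range in DBA/2J, at 6.50 to 7.39 at E15 to E17 against 6.60 to 7.11 at E12 and 6.49 to 6.84 at P6. With the chip as a block its difference from E12 was called lower (-0.92, adjusted p = 0.00759), against -0.12 (adjusted p = 0.802) without the block. In the separately scaled C57BL/6J table it read 9.20 to 9.62, against 8.18 to 8.48 and 7.81 to 8.06.

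Probes of 1 gene could differ in the same way. Myt1l was called on both sides in DBA/2J on ILMN_1221763 (2.40 ± 0.12 and 1.14 ± 0.12, adjusted p = 4.47e-12 and 4.05e-07) and on ILMN_1250586 (1.32 ± 0.11 and 1.06 ± 0.11, adjusted p = 4.41e-09 and 1.68e-07). ILMN_1256161 was called on neither (0.25 ± 0.32, adjusted p = 0.722, and 0.58 ± 0.32, adjusted p = 0.288), with 6.74 to 7.84 at E15 to E17 in DBA/2J, against 6.32 to 7.49 at E12, and 9.29 to 9.78 in C57BL/6J, against 8.35 to 8.83. On the array labelled DBA/2J E13 replicate 3, Prkag2 read 8.5, this Myt1l probe 9.38 and the dimmer Hbb-b1 probe 9.33, each the highest of the 31 DBA/2J arrays, with E13 replicate 2 next. For the 3 members at the edge of the rule, Rtn1 (1.27 ± 0.28 and 1.14 ± 0.28) and Rai2 (0.75 ± 0.17 and 0.50 ± 0.17) were called on both sides and Calm2 on neither (0.67 ± 0.46 and 1.11 ± 0.46). The rises of Rtn1 and Rai2 lost their calls with the chip as a block (adjusted p = 0.26 and 0.167) and without the 6 arrays nearer to C57BL/6J (adjusted p = 0.452 and 0.228). Their P6 calls were lost with the series as a block (adjusted p = 0.193 and 0.299) or the chip in its place (adjusted p = 0.379 and 0.798). The P6 call of Rtn1 was also lost without P6 replicate 2 (adjusted p = 0.0988), and that of Rai2 without any of 18 arrays.

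The step from E14 to E15 to E17 was small for most members. In DBA/2J the difference was above 0 for 229 of the 291, beside 32.5% of all probes, with a median of 0.17, beside -0.04 over all probes. At an adjusted level 34 members were called higher at E15 to E17 than at E14, beside 0.823% of all probes, and 0 were called lower, beside 0.3%. At an unadjusted p under 0.05 in limma 84 were higher, beside 3.71% of all probes, and 4 lower, beside 5.46%. Lypd1, at 1.07 ± 0.21 (adjusted p = 0.01), Tac1, at 0.96 ± 0.23 (adjusted p = 0.0343), Zcchc12, at 0.64 ± 0.13 (adjusted p = 0.0101), and Slc27a2, at 0.43 ± 0.10 (adjusted p = 0.0376), were among the 34. Foxp2 (-0.07), Dab1 (0.25), Nrp2 (0.18) and Gap43 (0.04) were not. The count was 14, 18 and 16 without DBA/2J E14 replicates 1, 2 and 3.

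The level then held to E18. In DBA/2J the median member differed from E15 to E17 by 0.105, beside 0.0927 over all probes. The E18 arrays there shared no chip with those of E15 to E17, so chip and age cannot be told apart at this step. Against E15 to E17, 13 members were called higher at E18 in DBA/2J, beside 1.16% of all probes, and 3 lower, beside 0.613%. The 3 were Nrp2 (-1.22), Myt1l (-0.49, ILMN_1250586) and Snhg11 (-1.98, ILMN_2644381), and without any single E18 array 0 were called. Nrp2 read 8.39, 8.16 and 8.19 at E18, under all 9 arrays of E15 to E17. Among the 13, chosen here after their values were seen, were the glutamate receptor Grm7, higher by 0.66 ± 0.16 (adjusted p = 0.0318), and Dpp10, higher by 0.90 ± 0.19 (adjusted p = 0.0143).

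The age with the highest mean reflected this spread. In DBA/2J 139 members were highest at E15, E16 or E17, or 47.8%, beside 15.8% of all probes, and 99 at E18, or 34.0%, beside 28.8% of all probes. A further 31 members, or 10.7%, were highest at P9, where DBA/2J has a single array, beside 9.65% of all probes. In C57BL/6J, where the rule used these ages, 241 members (82.8%) were highest at E15 to E17, beside 49.2% of all probes. At E15 alone these shares were 26.1% of the members and 41.6% of all probes, and at E16 they were 36.4% and 3.57%. Another 33 members (11.3%) were highest at E18 or E19, beside 5.4% of all probes.

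**Figure D5:**
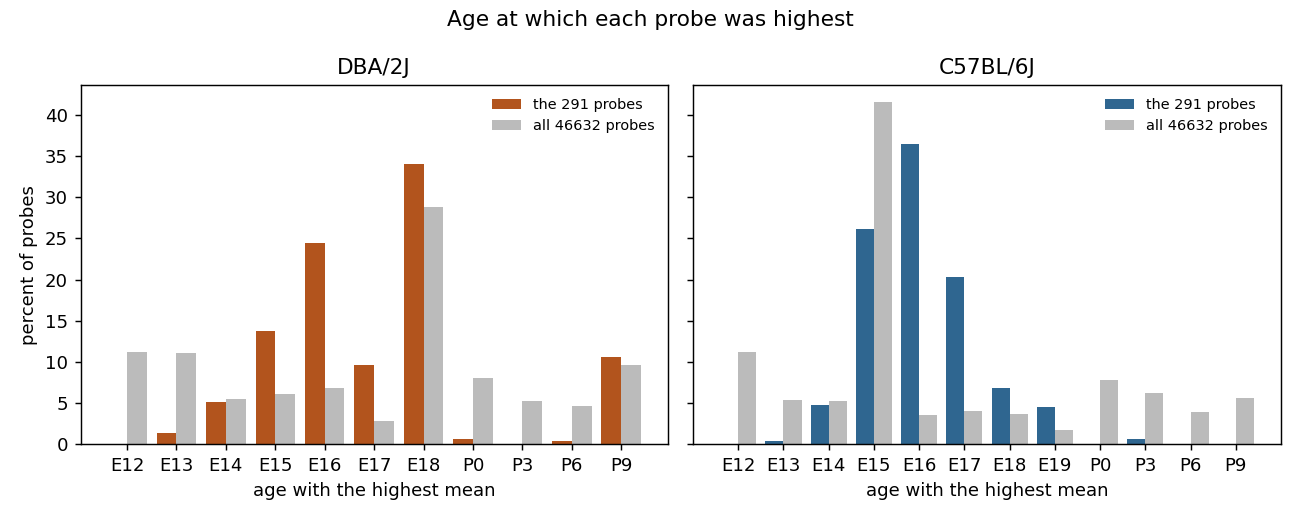
Percent of probes whose highest mean fell at each age, for the 291 probes (colour) and all 46632 probes (grey), in DBA/2J (left) and C57BL/6J (right). In DBA/2J E18 (34.0%, beside 28.8% of all probes) and E16 (24.4%, beside 6.85%) are the commonest ages among the 291 probes. In C57BL/6J they are E16 (36.4%, beside 3.57%) and E15 (26.1%, beside 41.6%). The bars at E12 are at 0 for the 291 probes in both strains.

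Between E18 and birth the members were lower. In DBA/2J the difference of P0 from E18 was below 0 for 282 of the 291 members, with a median of -0.56, beside -0.05 over all probes. It was called lower for 35, beside 0.603% of all probes, and higher for 0, beside 0.504%, with 1 higher at an unadjusted p under 0.05 in limma. Of the 35, 30 had also been called on both sides of E15 to E17. In DBA/2J the arrays of E18 and P0 shared no chip and no array series, the count was 0 with the series as a fixed block, and it was 11 with the chip as a random block. It was 9, 12 and 17 without E18 replicates 1, 2 and 3 and 10 and 11 without P0 replicates 1 and 2, and batch and age at this step cannot be told apart. Without the 6 arrays nearer to C57BL/6J it was 60. In C57BL/6J, whose E18 and P0 arrays likewise shared none, the difference was below 0 for 277 members, with a median of -0.69. This is a description with no test and no value over all probes. A test of the strain difference in this step, added after seeing the data, called 0 of the 291 members, beside 0.0172% of all probes, and 9 (3.09%) at an unadjusted p under 0.05 in limma, beside 3.26% of all probes.

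St8sia4, an enzyme that builds polysialic acid on the cell adhesion molecule NCAM of young neurons, had the steepest named change at birth. It read 7.46, 7.42 and 7.81 at P0 in DBA/2J, against 8.88, 9.05 and 8.87 at E18, a difference of -1.37 ± 0.20 (adjusted p = 0.0012). Jph4, a junctophilin that ties the endoplasmic reticulum to the cell membrane, read 7.79, 7.63 and 8.08, against 9.18, 9.19 and 8.90 (-1.26 ± 0.21, adjusted p = 0.00408). Lratd1 differed by -1.11 ± 0.20 (adjusted p = 0.00727) and clone B230317G11RIK by -1.07 ± 0.22 (adjusted p = 0.0158). In each of these genes all P0 arrays lay under all E18 arrays. With the series as a block their differences were -0.69, -1.0, -0.42 and -0.62, and all 4 calls were lost (adjusted p = 0.99 to 0.995). Foxp2 (-0.82 ± 0.20, adjusted p = 0.0449), Dab1 (-0.69 ± 0.17, adjusted p = 0.0491) and Rxfp3 (-0.91 ± 0.19, adjusted p = 0.0186) were also called, while Pcdh10 (0.04 ± 0.14, adjusted p = 0.936) was not.

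C57BL/6J arrays that the rule did not use gave a further look at the flanks. The mean of E14 and E18 was compared with E13 and with P9 in a model of the 7 unused ages. All E18 arrays and E14 replicate 1 shared a chip with E15 or E17 arrays that chose the members. P9 replicate 1 shared a chip with P6 replicates 1 and 2, which also chose them. P9 replicate 3 shared an array series with P6 replicate 3, another array of the choice. A chip or series effect in the choice could therefore carry over, at both ends of the comparison with P9. The E14 arrays had member medians of 8.92 and 8.24. Within a chip, E14 replicate 2 exceeded E13 replicate 1 on 241 members, with a median of 0.275, and on 38.0% of all probes. Against E13, 163 members were called higher, beside 4.03% of all probes, and 1, Myh8, lower (-0.93 ± 0.14, adjusted p = 0.000458), beside 3.25%. Against P9, 218 were called higher, beside 7.86%, and 0 lower, beside 5.42%, with 1 lower at an unadjusted p under 0.05 in limma. Both were called higher for 141 members, beside 1.14% of all probes. With the array series as a fixed block the counts were 6 against E13 and 76 against P9. The median differences were 0.73 and 1.01, beside 0.056 and 0.0601 over all probes. They were above 0 for 287 and 282 members, and the shares of all probes above 0 are not given here. Foxp2 exceeded E13 by 0.88 ± 0.11 (adjusted p = 0.00014) and P9 by 3.01 ± 0.11 (adjusted p = 4.95e-11), the largest of the P9 differences among members.

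The members' genes were long. RefSeq gives the 202 genes named without a clone name a median span of 56.2 kb, beside 16.9 kb for the 19763 genes so named on the array, and 39.1% of them spanned over 100 kb, beside 11.2%. The longer genes of the array were thus commoner among the members, with no test made. Promoters were found for 156 of the 202 genes and for 15088 array genes. An E-box (CAGCTG) stood in 21.2% of the member promoters, beside 15.8% of all, an EBF core (CCCNNGGG) in 18.6%, beside 15.9%, and an NFI motif (TTGGC) in 42.9%, beside 48.6%. A ROR motif (AGGTCA) stood in 8.33%, beside 14.1%, a GATA site (AGATAA) in 5.77%, beside 9.65%, and a homeobox core (TAATTA) in 3.21%, beside 4.55%. Both strands were searched, and matches of different motifs may overlap. The median GC content was 60.8% in the member promoters and 57% in all.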

How the data were processed

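Whole cerebella of DBA/2J and C57BL/6J mice had been hybridised to 66 Illumina bead arrays. The deposited table of each strain holds 1 signal intensity per probe and array, with no negative control or detection values; the sources used here do not say how the authors made these intensities. Array medians were 87.5 to 96.1 in DBA/2J and 78.6 to 88.6 in C57BL/6J, and alike within each table, so the tables were taken as already normalized, each by itself. The deposited matrix of scores (mean 8 and SD 2 on each array, from the values) served only as an alternative. The number of arrays limits the precision.

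Intensities were floored at 64 and taken to log2. A mean of 1.57% of DBA/2J and 7.71% of C57BL/6J probes lay under the floor. limma 3.58.1 in R 4.3.3 was fitted to all 46632 probes with 1 mean per age (DBA/2J 31 arrays, 20 residual degrees of freedom; C57BL/6J ages outside the rule 20 arrays, 13), with eBayes and Benjamini-Hochberg adjustment over all probes, two-sided. P-values measure the spread between arrays of an age. Members, lists and tests were chosen with earlier results of these data known. Genes named are the 12 strongest in DBA/2J, the 8 strongest in C57BL/6J, list members, the 6 lowest in DBA/2J, the 3 on each side of the limit, genes with 3 member probes and the 4 largest called changes each way at birth; others are said to be chosen after their values were seen or fall in a count. Lists used 1 probe per gene, that with the highest mean DBA/2J signal.

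Symbols came from RefSeq: 190 member probes matched by symbol, 46 by an older symbol (26 of them a clone name, uncertain), 2 by gene ID, and 53 kept the file's name. In a simulation of the DBA/2J peak on 46632 probes, 70%, 86%, 98% and 98% of 50 probes changed by 0.5, 1, 1.5 and 2 on the log2 scale were called, with 1 false call. The simulated noise was independent between arrays and held no chip effect. These rates therefore do not apply where arrays of 1 chip deviate together. Same-numbered arrays did not deviate together (mean correlation 0.08 in 135 pairs, the lowest -0.72), and the numbers were not treated as pairing the arrays. Arrays of 1 chip did deviate together (mean correlation 0.34 in 19 pairs, against -0.02 in 386 pairs on other chips; the random block gave a chip correlation of 0.46 in DBA/2J), while the main model has no chip term, so p-values without the block may be too small. Alternatives covered normalization, floor, a filter on dim probes, the scores, array series, chip and replicate blocks, and each array left out; leaving out arrays nearer to C57BL/6J and the strain difference at birth were added after seeing the data.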

Additional observations from a re-analysis of the deposited data

How the results depend on the processing

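Under the alternatives, called members were counted in 1 preset direction for each difference, so the counts cannot show a reversal. They are given without the share of all probes called under the same setting. For the rise over E12 they stayed within 1.5 times. When chips were a fixed block, 52 members exceeded P6 and 47 both ages in DBA/2J, and in C57BL/6J 19 exceeded E13 and 70 P9. With the array series as a fixed block 6 exceeded E13 and 76 P9 in C57BL/6J, and in DBA/2J 0 were lower at E18 and 0 at P0; with the chip as a random block these were 1 and 11. Members lower at E18 numbered 5 with a higher floor, 5 with the authors' scores and 5 without the 6 arrays nearer to C57BL/6J, which gave 60 lower at P0. With the replicate block the counts were 253 (over E12), 224 (over P6), 208 (both), 36 (over E14), 3 (lower at E18), 42 (lower at P0), 169 (over E13) and 217 (over P9), and none left the 1.5-fold range. Leaving out each array gave 228 to 251, 164 to 222, 161 to 207, 14 to 42, 0 to 6, 9 to 44, 111 to 207 and 185 to 235 in the same order. The rule itself gave 235 to 312 members over the scalings and floors and 277 to 311 with a C57BL/6J array left out. Of the values of named probes under alternatives, 4410 kept their status, called or uncalled, 192 lost a call, 30 gained one and 0 reversed while called. These values include fits without an array from outside the difference in question. The cause was not tested. The chip-blocked E18 and P0 differences of DBA/2J could not be estimated. Levels near the floor and chips that seldom hold several ages limit these counts.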

Other observations

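Some members are related genes, picked here after their values were seen. St8sia2 and St8sia4, both polysialyltransferases, exceeded E12 in DBA/2J by 1.04 (adjusted p = 0.00916 in limma) and 0.96 (adjusted p = 0.000145), and P6 by 1.94 (adjusted p = 1.64e-05) and 1.82 (adjusted p = 3.28e-08). The St8sia4 rise lost its call without the 6 arrays nearer to C57BL/6J (0.72, adjusted p = 0.0844). Meg3 and Rian, noncoding RNAs of 1 imprinted locus, exceeded E12 by 2.66 (adjusted p = 1.36e-08) and 0.93 (adjusted p = 0.00874), and P6 by 0.98 (adjusted p = 0.00489) and 1.04 (adjusted p = 0.00424). Only ILMN_2487260 of the Meg3 probes was a member. In DBA/2J, ILMN_2523012 and ILMN_2601176 averaged 11.17 and 8.99 at E16, 10.12 and 7.07 at E12, and 10.31 and 7.41 at P6. ILMN_1227149 averaged 7.88 at E15, 9.09 at E16 and 8.55 at P6, and in C57BL/6J 7.67 at E16 and 7.78 at P6. ILMN_2500067 averaged 6.24 at E16 in DBA/2J, near the floor. The estrogen-related receptor gene Esrrb exceeded both ages, by 3.5 (adjusted p = 5.63e-11) and 1.53 (adjusted p = 1.36e-05). Esrrg exceeded E12 by 2.62 (adjusted p = 1.23e-07), and its difference from P6 was 0.15 (adjusted p = 0.809). Tacr3, a tachykinin receptor, exceeded E12 by 0.44 (adjusted p = 0.00306) and P6 by 0.50 (adjusted p = 0.00123), beside the tachykinin gene Tac1 described above. The AMPA receptor subunit Gria3 exceeded E12 by 1.35 (adjusted p = 5.36e-05) and differed from P6 by 0.55 (adjusted p = 0.0953).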
